A study of Mus musculus with 6 samples.

Results

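The zymogen granule proteins Gp2, Sycn, Zg16 and Cuzd1, the acinar Rab GTPases Rab3d, Rab26 and Rab27b, and the trefoil peptide gene Tff2 were examined in embryonic mouse pancreas. These 8 genes of 18194 on the array were listed by their known function, with earlier results of these data known. All probe sets annotated to just 1 of them were taken, which gave 17 of 34958 single-gene probe sets. The samples were 3 whole pancreases of Jarid2 Δpanc embryos at e15.5, in which Pdx1-Cre deletes a floxed Jarid2 exon in the pancreatic epithelium, and 3 whole pancreases of control littermates (Jarid2 WT) of the same age, all on a C57BL/6 background. Whether the controls carried the Cre is not given in the sources used here. Recombination by this Cre is described in the study as mosaic and does not extend to mesenchyme, so that both groups hold cells with an intact gene. Total RNA was amplified through 2 cycles of cDNA synthesis and hybridized to Affymetrix Mouse Genome arrays. Each sample was titled as the pancreas of 1 embryo, and error estimates and p-values measure the spread between these embryos alone.

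Acinar cells store digestive enzymes as inactive precursors in zymogen granules and release them at the apical membrane. Gp2 is the abundant glycosylphosphatidylinositol-anchored protein of the granule membrane, syncollin (Sycn) lines its luminal face, Zg16 is a lectin of the granule content, and Cuzd1 is a granule membrane protein with CUB and zona pellucida domains. Rab proteins are small GTPases that direct vesicles to their target membrane. Rab3d and Rab27b sit on mature zymogen granules and act in exocytosis, and Rab26 is a granule Rab of secretory cells. Tff2 is a secreted peptide best known from mucous cells of the stomach.

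In the 8 genes examined, 3 had all Jarid2 Δpanc pancreases below all Jarid2 WT pancreases: Sycn, Rab3d and Tff2. In the other 5, Gp2, Zg16, Cuzd1, Rab26 and Rab27b, the groups overlapped, and no gene lay above the controls. Such a complete separation towards lower values was found in 5.66% of all genes and towards higher values in 5.71%. All 8 log2 differences (Jarid2 Δpanc minus Jarid2 WT) were negative. Over all genes 9520 of 18194 were counted as negative. That count includes genes with every array at the floor, which have no measured difference, and 1594 genes were of that kind. The median of the 8 was -0.52, beside 0 over all genes. With limma and Benjamini-Hochberg adjustment over all genes, 0 of the 8 passed an adjusted p of 0.05, and neither did any other gene, that is 0% lower and 0% higher. The same 3 genes were lower, and 0 higher, with an unadjusted p under 0.05, against a background of 4.44% lower and 4.36% higher. In whole pancreas, fewer acinar cells and less RNA per acinar cell cannot be told apart. The part of other cell types, such as endocrine cells, in these values was not tested.

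**Figure D1:**
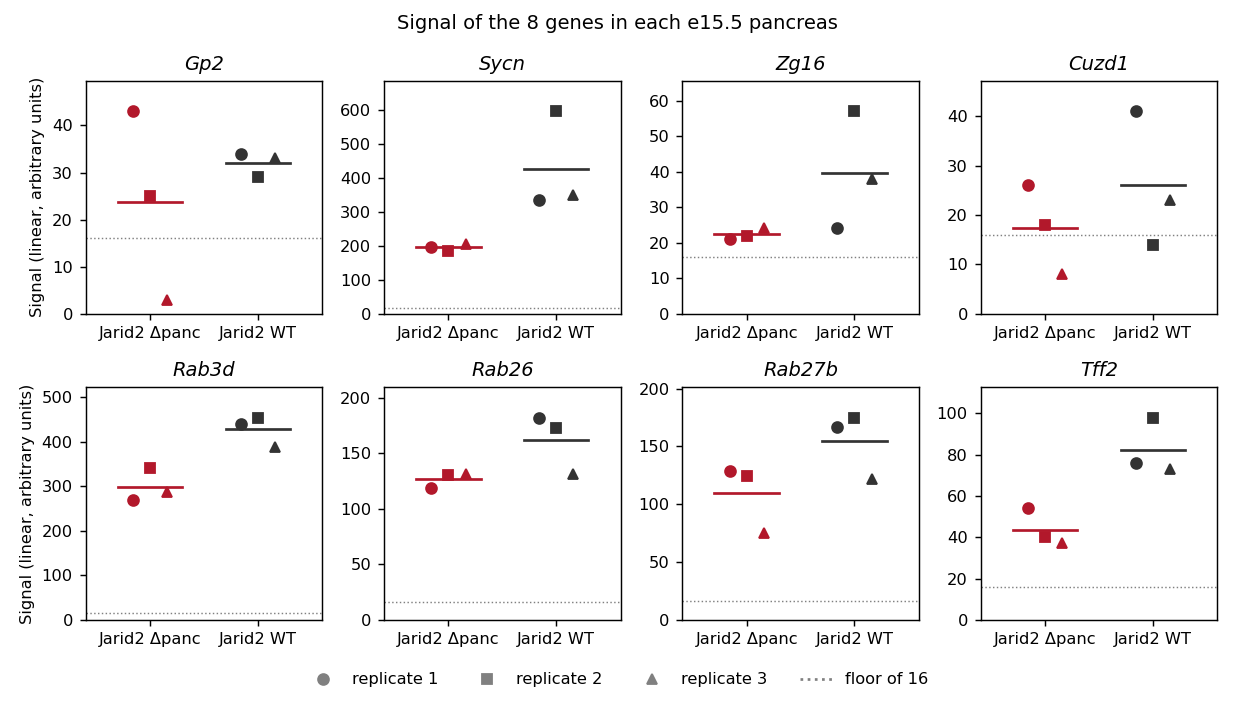
Signal of each of the 8 genes (vertical axis, linear array signal in arbitrary units, scaled per gene and starting at 0) in Jarid2 Δpanc (red) and Jarid2 WT (dark) pancreases, with marker shapes for replicates, bars for group means and a dotted line at the floor of 16. Sycn, Rab3d and Tff2 have no overlap between the groups, and Gp2, Zg16 and Cuzd1 lie close to the floor.

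Sycn and Rab3d are a granule protein and a granule Rab whose groups were fully apart, so the sequence upstream of their start sites is shown. They are given 5′ to 3′ from RefSeq (GRCm38.p6), in which 4 of the 8 genes had a promoter entry. Capitals mark TGGGAA on either strand, the core that RBPJ-type factors bind, since the PTF1 complex of acinar cells contains such a factor. The first is chr7:28540635-28540884 on the plus strand and the second chr9:21918200-21918433 on the minus strand.
Sycn: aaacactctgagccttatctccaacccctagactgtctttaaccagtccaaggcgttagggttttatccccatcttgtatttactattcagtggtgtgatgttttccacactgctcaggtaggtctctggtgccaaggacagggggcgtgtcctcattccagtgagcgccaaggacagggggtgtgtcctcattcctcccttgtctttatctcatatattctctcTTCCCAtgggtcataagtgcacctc
Rab3d: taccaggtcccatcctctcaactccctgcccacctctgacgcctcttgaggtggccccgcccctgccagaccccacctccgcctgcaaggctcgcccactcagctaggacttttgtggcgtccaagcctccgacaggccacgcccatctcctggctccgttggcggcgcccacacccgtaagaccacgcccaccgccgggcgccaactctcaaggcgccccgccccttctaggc

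The Sycn stretch holds 1 TGGGAA core, read on the opposite strand as capitals, that starts 25 bases before the start site. The Rab3d stretch holds 0. In windows of 300 bases around the start site, searched on both strands, Gp2 had 2 matches, Sycn 1, and Cuzd1 and Rab3d 0. Of 32851 such windows over all genes, 25.6% held at least 1. The E-box CATATG, a sequence bound by the acinar factor Mist1 (gene Bhlha15), had 0 matches in all 4 windows and occurred in 3.91% of all windows. The general E-box CANNTG, of which CATATG is 1 form, was matched 2 times in Gp2 and 2 times in Cuzd1, and was absent from the Sycn and Rab3d windows, against 72.3% of all windows that held it. GC content of the printed stretches was 49.2% for Sycn and 68.8% for Rab3d.

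Syncollin had the lowest fold change of the 8 genes. Its signal was 197, 186 and 206 in the Jarid2 Δpanc samples, against 335, 596 and 350 in the Jarid2 WT samples. The Jarid2 Δpanc samples lay close together, whereas Jarid2 WT replicate 2 stood well above the other controls. The log2 difference was -1.07 (standard error 0.25, 95% interval -1.74 to -0.40, adjusted p = 0.370 from limma), or 47.6% of the control level. Without Jarid2 WT replicate 2 it was -0.80 (standard error 0.06), so that this sample widened both the difference and its error. The other Sycn probe set gave 119, 141 and 127 in Jarid2 Δpanc and 200, 340 and 205 in Jarid2 WT, a log2 difference of -0.90 (standard error 0.24). Both probe sets placed the same control highest. Sycn lies on chromosome 7 (28540885 to 28542210, GRCm38.p6).

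Zg16, the granule lectin, was dim. The probe set that stands for it had signals of 21, 22 and 24 in Jarid2 Δpanc, against 24, 57 and 38 in Jarid2 WT. The groups touched at 24, in Jarid2 Δpanc replicate 3 and Jarid2 WT replicate 1. The log2 difference was -0.74 (standard error 0.34, adjusted p = 0.667 from limma), -1.06 without Jarid2 WT replicate 1 and -0.44 without Jarid2 WT replicate 2. Its other probe sets read 15, 13 and 2 in Jarid2 Δpanc against 25, 45 and 33 in Jarid2 WT, and 9, 9 and 5 in Jarid2 Δpanc against 27, 63 and 18 in Jarid2 WT. Both separated the groups, with log2 differences of -1.06 and -0.97 that were bounded by the floor of 16, since 3 arrays lay under it in each. Their names end in _s_at and _x_at, the array maker's mark for probes that can also bind related transcripts. Zg16 lies on chromosome 7 (127050156 to 127052675, GRCm38.p6).

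Gp2 and Cuzd1, both granule membrane proteins, had signals near the floor in every sample. Gp2 had 43, 25 and 3 in Jarid2 Δpanc, against 34, 29 and 33 in Jarid2 WT. The highest and the lowest of these 6 values were both Jarid2 Δpanc samples. Its log2 difference was -0.31 (standard error 0.39, 95% interval -1.34 to 0.72, adjusted p = 0.887 from limma), and 0.04 without Jarid2 Δpanc replicate 3. Cuzd1 had 26, 18 and 8 in Jarid2 Δpanc and 41, 14 and 23 in Jarid2 WT, a log2 difference of -0.34 (standard error 0.42, 95% interval -1.44 to 0.77), and 0.03 without Jarid2 WT replicate 1. The direction of both genes thus rested on 1 sample each, and a difference of either sign was not detectable at this signal. Each had a single probe set. Both genes lie on chromosome 7, Gp2 at 119442537 to 119459272 and Cuzd1 at 131308554 to 131322292 (GRCm38.p6).

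Rab3d, the Rab of mature granules, had lower signals in every Jarid2 Δpanc pancreas. The brightest of its 4 probe sets read 269, 341 and 287 in Jarid2 Δpanc, against 440, 454 and 388 in Jarid2 WT. The gap between the highest Jarid2 Δpanc sample and the lowest control was wider than the standard deviation of either group, which was 37.5 in Jarid2 Δpanc and 34.8 in Jarid2 WT. The log2 difference was -0.52 (standard error 0.12, 95% interval -0.82 to -0.21, adjusted p = 0.351 from limma), or 69.8% of the control level. The second probe set had 232, 242 and 288 in Jarid2 Δpanc and 405, 385 and 385 in Jarid2 WT, with a log2 difference of -0.63 (standard error 0.09). The third had 105, 109 and 128 in Jarid2 Δpanc and 205, 194 and 170 in Jarid2 WT, with a log2 difference of -0.74 (standard error 0.11). The fourth was dim and overlapped, with 14, 40 and 23 in Jarid2 Δpanc and 25, 37 and 25 in Jarid2 WT. Rab3d lies on chromosome 9 (21907491 to 21918199, GRCm38.p6).

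Rab26 had 119, 130 and 131 in Jarid2 Δpanc, against 182, 173 and 131 in Jarid2 WT. Jarid2 WT replicate 3 was at the level of the Jarid2 Δpanc samples, and the other controls lay above all of them. The log2 difference was -0.34 (standard error 0.14, 95% interval -0.72 to 0.04, adjusted p = 0.618 from limma). Without Jarid2 WT replicate 3 it was -0.49 (standard error 0.06, adjusted p = 0.203 from limma), and with Jarid2 WT replicate 3 as the only control it was -0.05 (standard error 0.08). Rab26 lies on chromosome 17 (24529054 to 24533747, GRCm38.p6).

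In Rab27b, Jarid2 WT replicate 3 was again the lowest control. Its brightest probe set had 129, 124 and 75 in Jarid2 Δpanc, against 167, 175 and 122 in Jarid2 WT. That control lay within the range of the Jarid2 Δpanc samples, of which replicate 3 was far below the others. The log2 difference was -0.52 (standard error 0.28, 95% interval -1.26 to 0.22, adjusted p = 0.710 from limma), -0.27 without Jarid2 Δpanc replicate 3 and -0.20 with Jarid2 WT replicate 3 as the only control. All 4 probe sets of Rab27b were negative, between -0.52 and -0.21, and in 0 of them were the groups apart.

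Tff2, the trefoil peptide gene, had 54, 40 and 37 in Jarid2 Δpanc and 76, 98 and 73 in Jarid2 WT. The highest Jarid2 Δpanc sample was below the lowest control. The log2 difference was -0.92 (standard error 0.20, 95% interval -1.45 to -0.40, adjusted p = 0.339 from limma), or 52.8% of the control level, from a single dim probe set. The related trefoil genes overlapped between the groups. Tff1 had 226, 172 and 181 in Jarid2 Δpanc and 128, 184 and 227 in Jarid2 WT, and Tff3 had 44, 57 and 51 in Jarid2 Δpanc and 55, 51 and 44 in Jarid2 WT. Since stomach lies next to the pancreas at dissection, 18 genes of gastric epithelium were read beside Tff2. The 17 measured summed to 916 to 1086 in Jarid2 Δpanc and 974 to 1097 in Jarid2 WT, with the gastrokines Gkn1 and Gkn2 at 4 to 46 and 17 to 21 in Jarid2 Δpanc and at 4 to 22 and 4 to 13 in Jarid2 WT. Of the 17 genes, 2 had the groups apart towards lower values and 1 towards higher, beside 5.66% and 5.71% of all genes. The 2 were ghrelin (Ghrl), also a hormone of embryonic islets, with 250, 246 and 220 in Jarid2 Δpanc and 352, 336 and 327 in Jarid2 WT, and Atp4b, a subunit of the gastric proton pump, named after its values were seen, with 39, 53 and 30 in Jarid2 Δpanc and 54, 62 and 72 in Jarid2 WT. Gkn2 was the 1 towards higher values. In 4 of the 17 the mean lay under the floor, and none was at 0 in any sample. The part of gastric tissue in the Tff2 difference was not tested. Of 13 measured intestinal genes, 0 had the groups apart, and they summed to 287 to 367 in Jarid2 Δpanc and 300 to 432 in Jarid2 WT. Tff2 lies on chromosome 17 (31141062 to 31144282, GRCm38.p6).

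**Figure D2:**
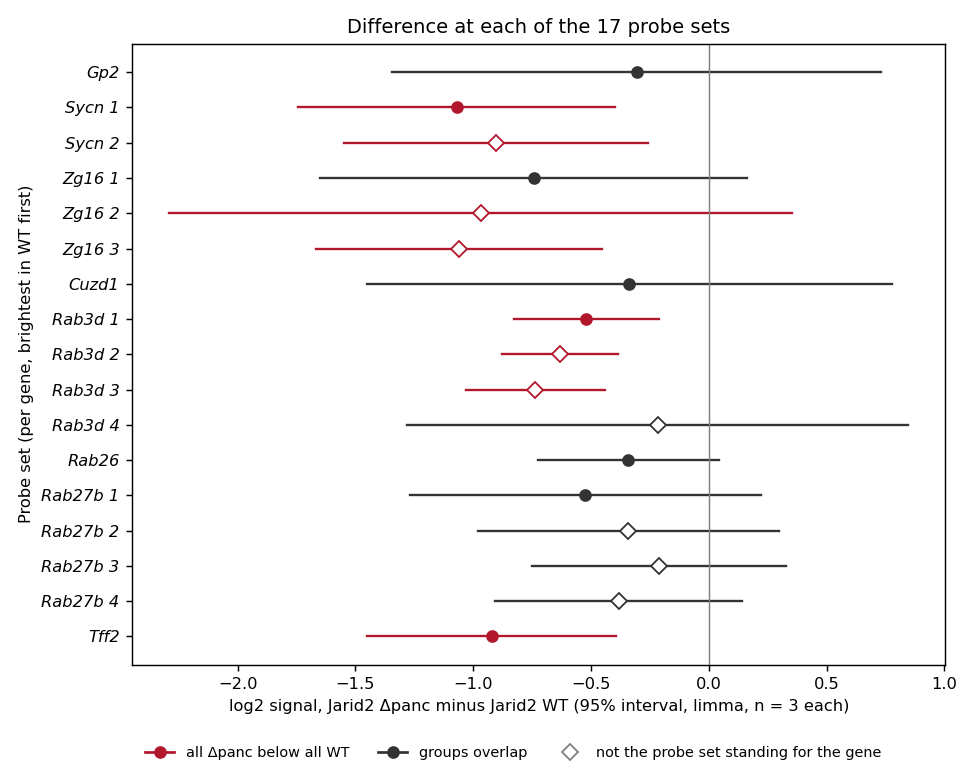
Log2 difference (horizontal axis, Jarid2 Δpanc minus Jarid2 WT, log2 units) at each of the 17 probe sets (vertical axis), with 95% intervals from limma, in red where all 3 Jarid2 Δpanc samples lay below all 3 controls, and with open diamonds for probe sets that do not stand for the gene. All 17 values are negative, from -1.07 to -0.21, and 8 are drawn in red.

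Probe sets of the same gene shared their direction. All 17 log2 differences were negative, and 8 had the groups apart towards lower values, from Sycn (2 of 2), Zg16 (2 of 3), Rab3d (3 of 4) and Tff2 (1 of 1), with 0 towards higher values. Over all single-gene probe sets, 4.61% were apart towards lower and 6.12% towards higher values. Probe sets of a gene read the same transcripts in the same samples and are not independent.

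Samples of each group differed among themselves. Jarid2 WT replicate 2 had the highest of the 6 signals in 5 of the 8 genes, and Jarid2 Δpanc replicate 3 the lowest in 4. In the mean of the 8 genes, relative to the control mean, values were -0.42, -0.58 and -0.79 in Jarid2 Δpanc, and in Jarid2 WT 0.02, 0.13 and -0.15 (log2 units). The 4 granule proteins had -0.35, -0.68 and -0.82 in Jarid2 Δpanc and -0.03, 0.09 and -0.07 in Jarid2 WT. Gp2, Zg16 and Cuzd1 among them lay near the floor, which limits what this mean can show. The 3 Rab genes had -0.45, -0.31 and -0.63 in Jarid2 Δpanc and 0.12, 0.13 and -0.25 in Jarid2 WT, where replicate 3 came close to the Jarid2 Δpanc samples.

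Other measured features of these arrays moved with part of the groups. Jarid2 itself had 392, 398 and 355 in Jarid2 Δpanc and 335, 301 and 415 in Jarid2 WT, which says nothing on the deletion unless the probes lie in the deleted exon. The X-inactivation transcript Xist had 4662, 4905 and 4197 in Jarid2 Δpanc and 24, 12 and 4390 in Jarid2 WT, while the Y-linked Eif2s3y was at most 13 in Jarid2 Δpanc and 560, 506 and 9 in Jarid2 WT, so that the samples of the groups differed in sex. The 16 skeletal muscle genes, all measured, summed to 432 to 565 in Jarid2 Δpanc and to 435, 496 and 19720 in Jarid2 WT, none of them at 0 in any sample. Jarid2 WT replicate 3 thus differed from the other controls in sex and in muscle transcripts, and it was the control with the lowest signal in 4 of the 8 genes, Rab3d, Rab26, Rab27b and Tff2. The nuclear RNA Malat1 separated the groups towards higher values, with 2756, 2801 and 3486 in Jarid2 Δpanc and 1503, 1221 and 1146 in Jarid2 WT. Neat1, the other nuclear RNA read, overlapped, with 104, 89 and 91 in Jarid2 Δpanc and 86, 139 and 48 in Jarid2 WT. The part of sex, of muscle tissue and of RNA quality in these differences was not tested. A comparison with Jarid2 WT replicate 3 as the only control was chosen after the data were seen. The median of the 8 log2 differences was then -0.37, with Sycn at -0.84, Rab3d at -0.38 and Tff2 at -0.76. Zg16 was at -0.77, Gp2 at -0.35, Cuzd1 at -0.23, Rab27b at -0.20 and Rab26 at -0.05. With 1 control, the spread among controls is not measured.

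The pancreatic epithelium was present in all samples. Cpa1, a carboxypeptidase of acinar and tip cells, had 11960 to 15123 in Jarid2 Δpanc and 13350 to 14039 in Jarid2 WT, Epcam had 3444 to 3990 in Jarid2 Δpanc and 3856 to 4121 in Jarid2 WT, and Pdx1 had 419 to 442 in Jarid2 Δpanc and 376 to 445 in Jarid2 WT. The groups overlapped in all 3. Over all genes, 5.66% had the groups apart towards lower and 5.71% towards higher values. Of the 9 epithelial genes read, 2 had the groups apart, both endocrine hormones. Ins2 had 2490, 2720 and 3234 in Jarid2 Δpanc and 5763, 6597 and 5117 in Jarid2 WT, and Gcg had 3030, 3247 and 2983 in Jarid2 Δpanc and 5584, 4644 and 3956 in Jarid2 WT. Of 8 measured duct genes, 1 was apart towards lower values and 1 towards higher, the keratin Krt7 (log2 difference 0.23, standard error 0.07). The 1 towards lower values was Tff2, which is also in that list. Of 6 acinar transcription factors, 1 had the groups apart, Rbpjl, the acinar RBPJ-type factor of the PTF1 complex, with 322, 396 and 385 in Jarid2 Δpanc and 498, 515 and 455 in Jarid2 WT (log2 difference -0.42, standard error 0.10). Bhlha15, the gene of the acinar factor Mist1, had 909, 1080 and 894 in Jarid2 Δpanc and 1294, 1196 and 994 in Jarid2 WT, a log2 difference of -0.27 (standard error 0.13) with overlap. Ptf1a, Xbp1 and Gata4 had log2 differences of -0.30, -0.11 and -0.07 (standard errors 0.19, 0.07 and 0.13). Nr5a2 was at 0.01 (standard error 0.11). The groups overlapped in each of these.

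Of the digestive enzymes that the granules carry, 16 of 19 listed were measured, and 10 of these had the groups apart towards lower and 0 towards higher values. The other 6, Cpa1 among them, overlapped. Over all genes, 5.66% were apart towards lower and 5.71% towards higher values. All 16 log2 differences were negative, with a median of -0.47. Carboxyl ester lipase (Cel) had 2575, 2722 and 2900 in Jarid2 Δpanc and 4407, 4757 and 4140 in Jarid2 WT. The trypsin gene Prss2 and the elastase gene Cela3b had log2 differences of -1.04 (standard error 0.15) and -1.63 (standard error 0.305), and colipase (Clps) had -0.47 (standard error 0.07). The Prss2 and Cela3b probe sets end in _x_at, so they can also bind related transcripts. In Cela3b, as in Sycn, Zg16 and Tff2, Jarid2 WT replicate 2 was the highest control, with 7424 against 4816 and 4596. Of 14 measured genes of other secreted acinar products, 3 had the groups apart towards lower values, among them the trypsin inhibitor Spink1 (log2 difference -1.22, standard error 0.10) and the serpin Serpini2 (log2 difference -0.76, standard error 0.09). The third was Reg1, a secreted lectin gene named after its values were seen, at -0.40 (standard error 0.17). None of these passed over all genes.

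**Figure D3:**
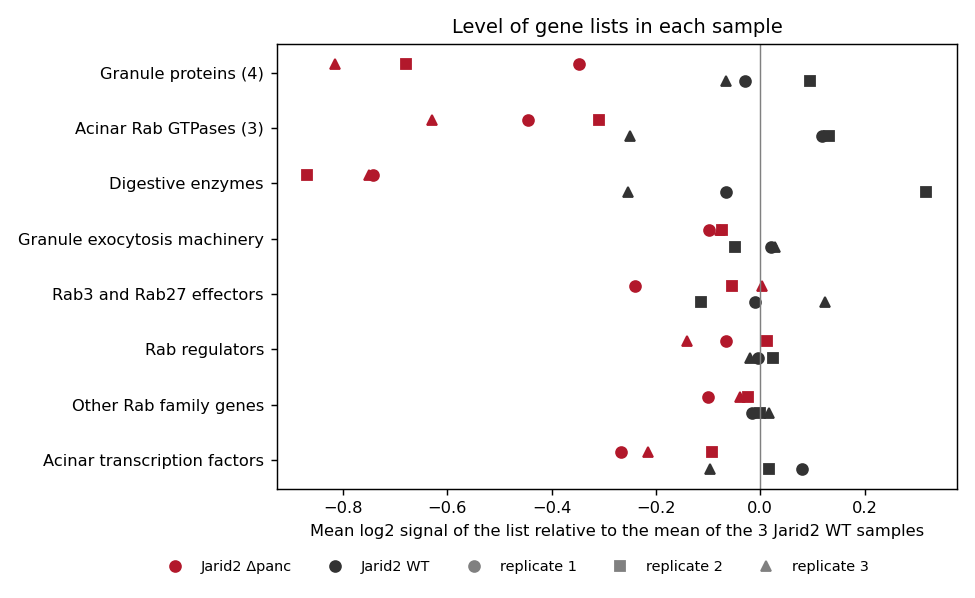
Average level per sample of the genes in 8 lists (horizontal axis, log2 signal minus the control average, log2 units), with Jarid2 Δpanc samples in red above Jarid2 WT samples in dark and marker shapes for replicates. The granule proteins of the Jarid2 Δpanc samples lie between -0.82 and -0.35 and the other Rab family genes between -0.10 and -0.02. Among the granule proteins, Gp2, Zg16 and Cuzd1 were near the floor.

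The machinery that moves and fuses granules stayed closer to 0 in its median. Of 22 measured genes of granule docking and fusion, 15 were negative with a median of -0.11. In 4 the groups were apart towards lower values and in 1 towards higher, beside 5.66% and 5.71% of all genes. Stxbp2, the Munc18 protein that acts with syntaxin 3 in epithelial secretion, had 161, 182 and 170 in Jarid2 Δpanc and 245, 223 and 216 in Jarid2 WT (log2 difference -0.41, standard error 0.07). Its relative Stxbp3 ran the other way, with 437, 373 and 416 in Jarid2 Δpanc and 321, 369 and 312 in Jarid2 WT (log2 difference 0.29, standard error 0.09). The other 3 with lower values, named after these were seen, were the SNARE genes Vamp2 and Vamp8 and the SNARE adaptor gene Napa, with log2 differences of -0.16, -0.10 and -0.15 (standard errors 0.09, 0.05 and 0.06).

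Of 16 measured Rab3 and Rab27 effectors, 8 were negative, with 3 apart towards lower values and 1 towards higher. Over all genes these shares were 5.66% and 5.71%. The effector Sytl4 (granuphilin), which is also found on insulin granules, had 96, 121 and 147 in Jarid2 Δpanc and 164, 197 and 178 in Jarid2 WT (log2 difference -0.58, standard error 0.18). The motor gene Myo5a was the 1 towards higher values, with a log2 difference of 0.28 (standard error 0.10). The other 2 towards lower values, named after these were seen, were Exph5, a Rab27 effector, at -0.30 (standard error 0.13) and the dim Rims3 at -0.42 (standard error 0.17). Of 16 measured Rab regulators, 2 were apart towards lower values, the GTPase-activating protein gene Tbc1d10b at -0.27 (standard error 0.07) and the Rab escort protein gene Chml at -0.14 (standard error 0.04). No gene of these lists passed over all genes.

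Genes through which acinar cells are stimulated and handle calcium and fluid had 8 of 17 apart towards lower values and 1 towards higher. Their median was -0.16. Over all genes, 5.66% were apart towards lower and 5.71% towards higher values. The acinar water channels Aqp8 and Aqp12 had log2 differences of -0.87 (standard error 0.15) and -1.93 (standard error 0.43). Aqp12 read 45, 37 and 12 in Jarid2 Δpanc and 122, 118 and 103 in Jarid2 WT, and its lowest sample lay under the floor. The calcium pump Atp2a2 and the chloride cotransporter Slc12a2 had smaller differences, -0.23 (standard error 0.04) and -0.16 (standard error 0.04). Atp2b1, a calcium pump of the plasma membrane named after its values were seen, was the 1 towards higher values, with 566, 532 and 565 in Jarid2 Δpanc and 415, 491 and 477 in Jarid2 WT.

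The 3 acinar Rab genes stood at the low end of their family. Among 59 Rab genes on the array, ordered by log2 difference from the lowest, Rab27b was at place 2, Rab3d at place 3 and Rab26 at place 6. The groups overlapped in Rab27b and Rab26, and the mean over the Rab27b probe sets was -0.36 (standard error 0.15). Between Rab3d and Rab26 lay Rab40b at -0.52 (standard error 0.35) and Rab20 at -0.35 (standard error 0.31), both named after their values were seen. The lowest was Rab3b at -0.63, a dim gene with a standard error of 0.53, and the highest was Rab42 at 0.31. The other 56 had a median of -0.02, with 3 apart towards lower values and 1 towards higher. Over all genes, 5.66% were apart towards lower and 5.71% towards higher values, so the 3 were near the background. Rab29 was 1 of the 3, at -0.16 (standard error 0.04). Another was Rab27a, the close relative of Rab27b, named after its values were seen, with 138, 162 and 121 in Jarid2 Δpanc and 179, 178 and 163 in Jarid2 WT (log2 difference -0.31, standard error 0.12). The neuroendocrine Rab3a was the other, with 244, 275 and 300 in Jarid2 Δpanc and 375, 307 and 337 in Jarid2 WT (log2 difference -0.32, standard error 0.11). Rab31 was the 1 towards higher values, at 0.29 (standard error 0.12). Rab11a and Rab8a, which act in general membrane traffic, were named after their values were seen and had -0.04 and 0.05 (standard errors 0.06 and 0.06).

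**Figure D4:**
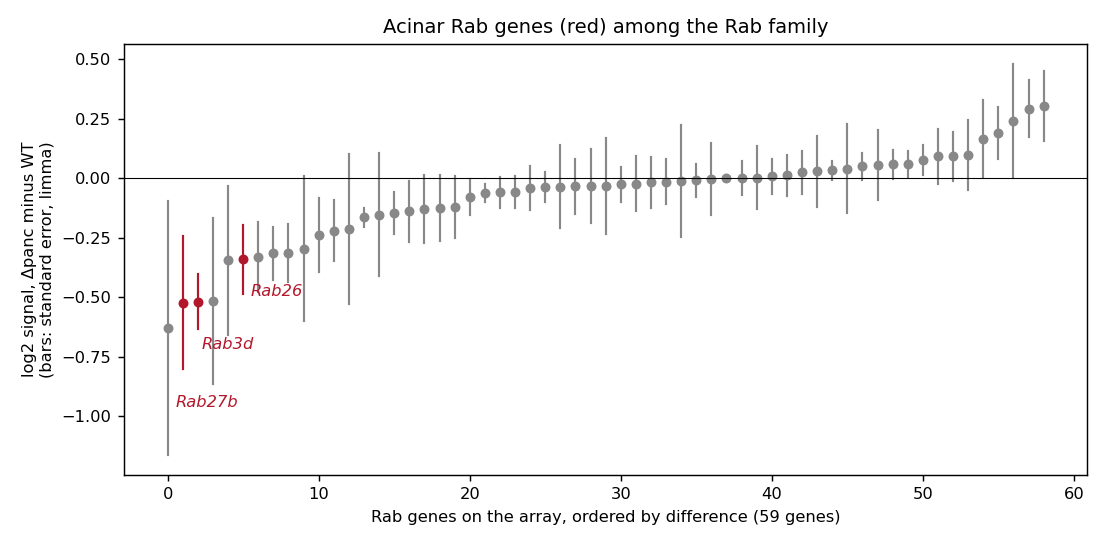
Log2 difference (vertical axis, Jarid2 Δpanc minus Jarid2 WT, log2 units) of the 59 Rab genes in ascending order (horizontal axis, order only), with bars of 1 standard error from limma and the 3 acinar Rab genes in red. The 3 red points, from -0.52 to -0.34, lie among the 6 lowest of the family.

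Among 9956 genes with a mean signal of at least 64, those most like the mean of the 8 genes over the 6 samples were Creld2 (Pearson r = 0.997), Gnmt (r = 0.994), Cisd1 (r = 0.993), Tob1 (r = 0.990) and Kctd14 (r = 0.990). All 5 had the groups apart. Creld2, an endoplasmic reticulum protein, had 948, 874 and 777 in Jarid2 Δpanc and 1169, 1207 and 1049 in Jarid2 WT, and Gnmt, a glycine methyltransferase, had 162, 148 and 133 in Jarid2 Δpanc and 232, 259 and 212 in Jarid2 WT. These values share the same 6 RNA samples and their scaling, and the correlation includes the distance between the groups.

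**Figure D5:**
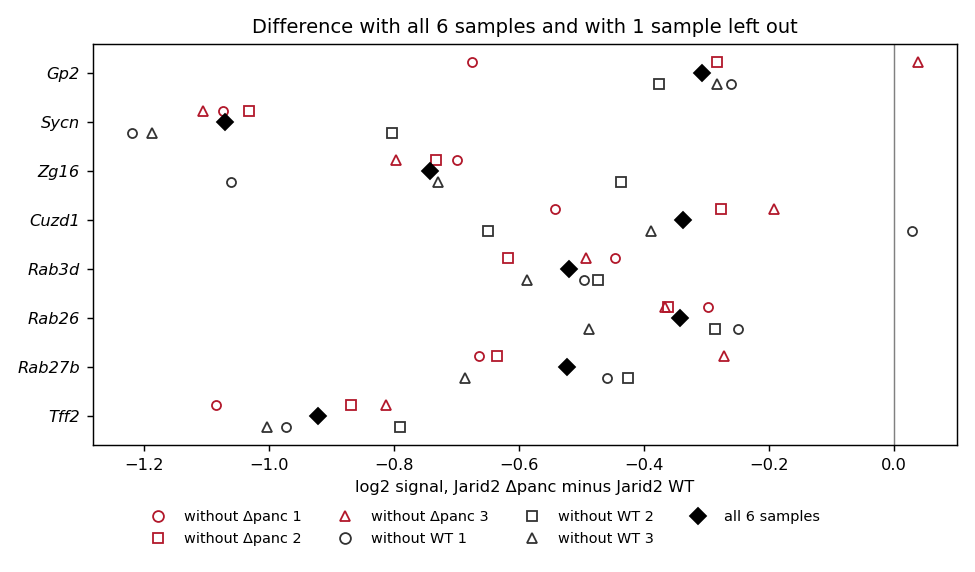
Log2 difference (horizontal axis, Jarid2 Δpanc minus Jarid2 WT, log2 units) of each gene (vertical axis) with all 6 samples (black diamonds) and with 1 sample left out (open red symbols for Jarid2 Δpanc, open dark symbols for Jarid2 WT). Sycn stays between -1.22 and -0.80, Rab3d between -0.62 and -0.45 and Tff2 between -1.09 and -0.79, while Gp2 reaches 0.04 and Cuzd1 0.03.

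Sycn, Rab3d and Tff2 had the groups apart whichever single sample was left out. Zg16 joined them without Jarid2 WT replicate 1 and Gp2 without Jarid2 Δpanc replicate 1, which gave 4 of 8 each. The count of such genes was 3 of 8 with all samples and 5 of 8 without Jarid2 Δpanc replicate 3, where Zg16 and Rab26 joined them. It was also 5 without Jarid2 WT replicate 3, where Rab26 and Rab27b did. Smaller groups separate more readily, and the share over all genes given above is for all samples. No such share is given for the settings with 1 sample left out, so the larger counts have no background.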

How the data were processed

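RNA of 3 Jarid2 Δpanc and 3 Jarid2 WT pancreases was measured on Affymetrix Mouse Genome arrays. The deposited values are linear signal intensities of 45101 probe sets per array, made by the authors with MAS5 according to the submitters' notes (version not given in the sources used here). They are whole numbers, and a check of their scaling gave a mean of 150 per array once the top and bottom 2% were dropped. The study's methods name RMA, which starts from scanner files not used here. A label field speaks of islets held in glucose; embryonic pancreas, as in the remaining labels and the study, was followed. Replicates were numbered by the sample titles.

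All values were raised to a floor of 16 where smaller and put on the log2 scale. In each array 26.5% to 29.0% of probe sets lay under that floor, and no detection calls were given, so that small differences of dim genes could not be measured. Of 35890 annotated probe sets, 34958 carry a single gene symbol. Each of 18194 genes was represented by its brightest probe set on average. For some named genes, among them Prss2, Cela3b, Ins2, Rab3a and Serpini2, its name ends in _x_at or _s_at, so related transcripts can also bind. Groups were compared over all genes, and again over all single-gene probe sets, by moderated linear models (limma 3.58.1, R 4.3.3; two-sided, Benjamini-Hochberg over all rows, threshold of 0.05). The fit was tested on simulated data. The number of arrays limits the precision. The 8 genes and all gene lists were chosen with earlier results of these data known. Other named genes were, per list, up to 4 with the smallest unadjusted p under 0.05, or the 2 brightest. Cell type markers, such as Cpa1, Epcam, Pdx1 and Gkn1, were also named, whatever their p. So were acinar transcription factors, nuclear RNAs, sex-linked genes and Jarid2. A list gene without a single-gene probe set was not analysed here. Same-numbered samples did not deviate together (correlations of -0.07, -0.04 and -0.03 over genes with a mean signal of at least 64), so no pairing was assumed. Alternatives covered samples left out, the replicate number as a block, normalization, the floor, dim genes, the choice of probe set and the variance model.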

Additional observations from a re-analysis of the deposited data

How the results depend on the processing

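In each of the 16 alternatives, 0 of the 8 genes passed an adjusted p of 0.05 from limma. Sycn had log2 differences of -1.22 to -0.80 (adjusted p = 0.0744 to 0.581 from limma), Rab3d of -0.62 to -0.38 (adjusted p = 0.151 to 0.707) and Tff2, in 15 alternatives, of -1.09 to -0.35 (adjusted p = 0.242 to 0.774), and in each alternative that gave a value their groups stayed apart. Leaving out 1 sample gave 3 to 5 genes with the groups apart. Quantile normalization gave 5, with Zg16 and Rab26 added. Trended robust variances gave 6 genes lower at an unadjusted p under 0.05 from limma, with Zg16, Rab26 and Rab27b added. The matching shares over all genes are not given for these alternatives, so these counts have no background. At a floor of 64 every array of Gp2, Zg16 and Cuzd1 was at the floor. The median of the 8 was -0.35 with these 3 entered as 0, and -0.52 over the other 5. With 1 sample left out, Gp2 ranged from -0.675 to 0.038 (positive without Jarid2 Δpanc replicate 3), Cuzd1 from -0.650 to 0.028 (positive without Jarid2 WT replicate 1), both from a single probe set, and the dim Rab3d probe set from -0.571 to 0.090 (positive without Jarid2 Δpanc replicate 1). At a floor of 32, Gp2 was at 0.098, Zg16 at -0.36, Cuzd1 at -0.12 and that Rab3d probe set at 0.038, and at a floor of 1, Gp2 was at -1.11 and Cuzd1 at -0.61. A dimmer Rab27b probe set was at 0.19 with Jarid2 WT replicate 3 as the only control, a setting added after the data were seen. The Zg16 probe set ending in _s_at was at -1.04 there, with all Jarid2 Δpanc values raised to the floor and so no spread to test against.

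Over all genes, leaving out 1 sample gave 0 to 8 genes lower and 0 to 4 higher at an adjusted p under 0.05, among them 8 lower and 1 higher without Jarid2 WT replicate 2, 3 lower and 2 higher without Jarid2 WT replicate 3, 2 lower and 4 higher without Jarid2 Δpanc replicate 3, and 1 higher without Jarid2 Δpanc replicate 2. Quantile normalization gave 2 lower and 1 higher, leaving out genes with a mean signal under 64 gave 3 lower, trended robust variances 24 lower and 1 higher, all probe sets side by side 1 higher, and Jarid2 WT replicate 3 as the only control 244 lower and 13 higher. Of those 244, 219 had all Jarid2 Δpanc values at the floor, so that their calls rest on no measured spread. The causes of the other shifts were not tested. With the replicate number as a block, 4 of the 8 genes were lower at an unadjusted p under 0.05, with Rab27b added, and 0 genes passed over the whole array. The share of all genes at that unadjusted p is not given for this setting. Signals near the floor of 16 limit what Gp2, Cuzd1 and Zg16 can show.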
